A study of Mus musculus with 3 samples.

Results

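The 9 genes described here encode enzymes and receptors through which immune cells make, sense and remove extracellular purines. They are the ectonucleotidases Entpd1 and Nt5e, the ATP-gated channels P2rx4 and P2rx7, the adenosine receptors Adora2a, Adora2b and Adora3, the NAD-consuming ectoenzyme Cd38 and adenosine deaminase, Ada. They were taken by gene symbol from the 37224 gene rows of the count files, and each of the 9 matched 1 Ensembl ID.

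The RNA came from 3 sorted immune cell populations of the intestinal epithelium of RAG-2 null mice, which lack a recombinase subunit that T and B cells need to build antigen receptors, so the genotype was shared by every population. The iCD8a library came from cells positive for CD45, a leukocyte marker, and for CD8alpha. The ILC1 library came from group 1 innate lymphoid cells, sorted on NKp46 and NK1.1, and the CD11b+ library from myeloid cells that were CD45-positive, CD8alpha-negative and CD11b-positive. A gene is called apart here where 1 library exceeds another at least 4-fold, with the interval's bound nearest to no difference at 2-fold or more, and the higher level reaches 5 CPM. Each population had 1 library, so no difference below has a replicate check and no p-value was computed. The iCD8a and ILC1 libraries together are called lymphoid below. The labels do not say whether a library pooled several mice, and age is not stated there.

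Levels are given as CPM, a gene's share of all reads counted on genes, scaled to a common library size. Those reads numbered 21678113 in iCD8a, 22181660 in ILC1 and 30511296 in CD11b+. The range after each value is a 95% exact interval, which covers counting error only. Cd8a had 2874 CPM in the iCD8a library, 4.37 CPM in the ILC1 library and 26.1 CPM in the CD11b+ library, so the sort on CD8alpha was visible in RNA. Ncr1, which encodes NKp46, had 1.57, 393 and 2.06 CPM in the same order, and Klrb1c, which encodes NK1.1, had 226, 542 and 13.6 CPM. Itgam, which encodes CD11b, was highest in CD11b+ but not absent elsewhere, with 394, 185 and 782 CPM. Rag2 had 0 counts in each library, which allows up to 0.138, 0.135 and 0.0983 CPM. Mitochondrial transcripts took 1.60%, 2.09% and 9.53% of the counts. In bulk libraries, fewer cells of a type and less RNA per cell cannot be told apart.

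Extracellular ATP, released by stressed or dying cells, acts on P2X channels and on P2Y receptors coupled to G proteins, and mostly alerts immune cells. CD39, the product of Entpd1, cuts ATP and ADP to AMP, and CD73, the product of Nt5e, cuts AMP to adenosine, which restrains lymphocytes and phagocytes through receptors that raise cyclic AMP. Adenosine deaminase removes adenosine by turning it into inosine, and CD38 consumes NAD, which mouse T cells can otherwise use to modify and open the P2X7 channel. Lymphocytes that reside in the gut epithelium are known for abundant CD39, CD73 and P2X7.

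The genes P2rx7, P2rx4 and Adora2b are shown by their promoters, since the channel genes are close on the chromosome and leaned to opposite libraries, and Adora2b had the largest difference between libraries among the 9. P2rx7 and P2rx4 lie on the same strand of chromosome 5 with 16.1 kb between them in the GENCODE annotation, an interval that holds 1 other gene, which is not protein coding. The sequences are the 250 bases before the RefSeq start on the plus strand of GRCm38.p6, at chr5:122643677-122643926, chr5:122707294-122707543 and chr11:62248734-62248983. Capitals mark matches to any of 8 motifs searched on both strands.
P2rx7: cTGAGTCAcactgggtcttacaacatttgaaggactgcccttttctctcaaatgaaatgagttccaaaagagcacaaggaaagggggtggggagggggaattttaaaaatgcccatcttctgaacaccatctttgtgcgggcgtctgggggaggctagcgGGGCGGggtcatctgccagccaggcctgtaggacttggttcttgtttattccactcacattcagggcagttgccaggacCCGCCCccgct
P2rx4: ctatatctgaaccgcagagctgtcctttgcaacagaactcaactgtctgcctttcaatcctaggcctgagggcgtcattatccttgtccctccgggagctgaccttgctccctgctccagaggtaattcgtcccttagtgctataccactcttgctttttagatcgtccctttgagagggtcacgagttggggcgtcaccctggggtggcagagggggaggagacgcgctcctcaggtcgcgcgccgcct
Adora2b: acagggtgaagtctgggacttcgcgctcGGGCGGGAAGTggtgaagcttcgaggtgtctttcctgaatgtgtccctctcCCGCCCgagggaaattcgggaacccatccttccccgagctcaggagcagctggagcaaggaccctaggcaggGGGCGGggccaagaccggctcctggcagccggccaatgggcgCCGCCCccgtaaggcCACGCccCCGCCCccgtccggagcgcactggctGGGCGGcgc

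The motifs were GGGCGG (the GC box), GGAAGT (ETS factors), TGTGGT (RUNX factors), GCGTG (the core bound by the aryl hydrocarbon receptor), ACGTG (the core bound by hypoxia-inducible factors), TGANTCA (AP-1), TGACGTCA (the cyclic AMP response element) and TATAAA. Over 32851 windows of the same length, they were found in 32.7%, 19.7%, 14.05%, 28.2%, 16.6%, 6.75%, 1.55% and 12.4% in that order. The P2rx7 window held 2 GC boxes and 1 AP-1 match, and the P2rx4 window held none of the 8. The Adora2b window held 6 GC boxes, 1 ETS match that overlaps the first of them and 1 GCGTG core. A second annotated start of P2rx7 had no match. Windows were found for 8 of the 9 genes, and Adora2a had none in the table. The RUNX motif, the ACGTG core, the cyclic AMP response element and TATAAA were in none of the 10 windows of those 8 genes. A match is a description of letters, not of a bound site.

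**Figure D1:**
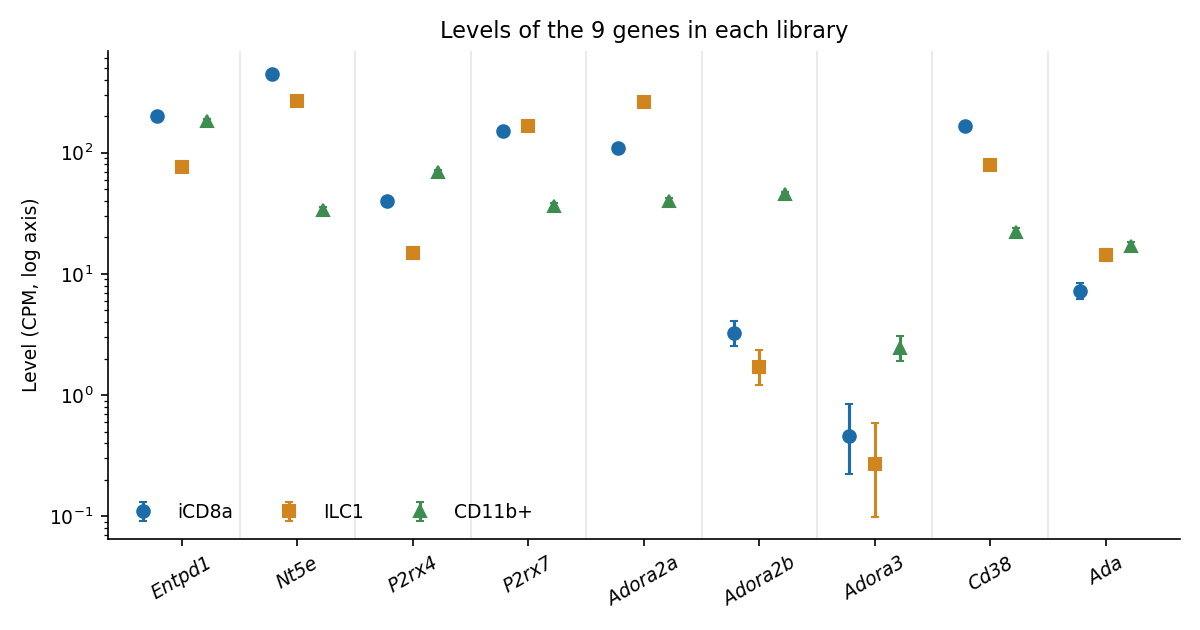
Level of each of the 9 genes (CPM, log axis) in the iCD8a, ILC1 and CD11b+ libraries, 1 library each, with 95% exact Poisson intervals that cover counting error only. Nt5e, Cd38 and P2rx7 sit higher in both lymphoid libraries than in CD11b+, and Adora2b, at 45.4 CPM in CD11b+, sits below 4.08 CPM in both others.

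Transcripts of CD73 marked both lymphoid libraries, whereas those of CD39 were shared with the myeloid one. Nt5e (ENSMUSG00000032420, chromosome 9) stood at 447 CPM in iCD8a (438 to 456), at 266 in ILC1 (259 to 272) and at 33.6 in CD11b+ (31.5 to 35.7). It was 13.3-fold higher in iCD8a than in CD11b+ (12.5 to 14.2) and 7.91-fold higher in ILC1 than in CD11b+ (7.40 to 8.46). In iCD8a it ranked 313 by CPM among all gene rows. Entpd1 (ENSMUSG00000048120, chromosome 19) stood at 201 CPM in iCD8a (195 to 207), at 75.9 in ILC1 (72.3 to 79.6) and at 184 in CD11b+ (179 to 189). It was 2.65-fold higher in iCD8a than in ILC1 (2.51 to 2.81) and 2.42-fold lower in ILC1 than in CD11b+ (2.29 to 2.56). Entpd1 was 1.10 times as high in iCD8a as in CD11b+ (1.05 to 1.14) and 0.929 times with TMM factors, so its direction there turns with the scaling.

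The balance between the 2 ectonucleotidases does not depend on library scaling, because both are read in the same library. Per kilobase of merged exons, the ratio of Nt5e to Entpd1 was 1.44 in iCD8a (1.39 to 1.49), 2.27 in ILC1 (2.15 to 2.40) and 0.118 in CD11b+ (0.111 to 0.127). CD73 transcript thus exceeded CD39 transcript in both lymphoid libraries, and CD39 transcript exceeded CD73 transcript 8.45-fold (7.90 to 9.04) in CD11b+. The ratio was 12.2 times as high in iCD8a as in CD11b+ (11.27 to 13.1), 19.2 times as high in ILC1 as in CD11b+ (17.6 to 20.9) and 0.634 times as high in iCD8a as in ILC1 (0.594 to 0.676). With the longest transcript as the length, the ratios were 2.34, 3.70 and 0.193, each more than 1.5 times the value with merged exons, and each stayed on the same side of 1.

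Lymphocyte transcripts that the CD11b+ library also carried stand beside the Nt5e value. Nt5e in CD11b+ was at 7.51% of its iCD8a level, and the 9 lymphocyte markers with at least 5 CPM in iCD8a were at a median of 6.82% (2.51% to 71.3%). That minimum was set on the iCD8a level, the base of the percentage, which favours low values. It left out Cd2, at 0.738 CPM in iCD8a and 1.74 CPM in CD11b+. Of all 10 markers on the list, 8 exceeded their CD11b+ level in iCD8a by the 4-fold rule and 0 fell below it (7.57% and 12.1% of all genes). The list summed to 58745, 9507 and 5502 CPM in iCD8a, ILC1 and CD11b+, with 0 of the markers at 0 counts in any library. Their part in the CD11b+ level of Nt5e was not tested. CD39 is also known from blood vessel endothelium. Of its markers, Emcn had 0 counts in all 3 libraries and Tek had 0, 0 and 3 counts. Cdh5 and Kdr were highest in iCD8a. Cdh5 had 264 counts in iCD8a, 2 in ILC1 and 44 in CD11b+. Kdr had 80, 2 and 9 counts in the same order and stayed below 5 CPM in every library. Of the 12 endothelial and stromal markers, 3 reached 5 CPM in some library and so could pass the rule. Of them, 2 were higher in iCD8a than in each other library, Cdh5 and Col1a2. The shares of all genes were 3.91% over ILC1 and 7.57% over CD11b+. The list summed to 645.4, 328 and 187 CPM in iCD8a, ILC1 and CD11b+, most of it Pecam1. The iCD8a and CD11b+ gates required CD45, which endothelium lacks, though both libraries held counts of Cdh5. The part of these cells in the Entpd1 level was not tested.

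The 2 ATP-gated channels leaned to opposite libraries. P2rx7 (ENSMUSG00000029468), which encodes the channel that high ATP opens and that can lead to cell death or inflammasome activation, stood at 150.7 CPM in iCD8a (146 to 156), at 166 in ILC1 (161 to 172) and at 36.5 in CD11b+ (34.4 to 38.8). It was 4.12-fold higher in iCD8a than in CD11b+ (3.85 to 4.42) and 4.55-fold higher in ILC1 than in CD11b+ (4.26 to 4.87). The fold between iCD8a and CD11b+ was 3.50 with TMM factors, below 4-fold. P2rx4 (ENSMUSG00000029470), a more sensitive ATP channel found on macrophage and lymphocyte membranes and in lysosomes, stood at 40.2 CPM in iCD8a (37.6 to 43.0), at 14.9 in ILC1 (13.4 to 16.6) and at 68.8 in CD11b+ (65.9 to 71.8). It was 4.61-fold lower in ILC1 than in CD11b+ (4.10 to 5.19) and 2.70-fold higher in iCD8a than in ILC1 (2.37 to 3.07). Between iCD8a and CD11b+ it was not apart, 1.71-fold lower in iCD8a (1.58 to 1.85).

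Read within each library, the ratio of P2rx7 to P2rx4 per kilobase was 4.41 in iCD8a (4.09 to 4.76), 13.1 in ILC1 (11.7 to 14.7) and 0.625 in CD11b+ (0.581 to 0.673). The ratio was 7.05 times as high in iCD8a as in CD11b+ (6.35 to 7.82), 20.98 times as high in ILC1 as in CD11b+ (18.3 to 24.0), and 0.336 times as high in iCD8a as in ILC1 (0.294 to 0.385). Among all 7 P2X genes, P2rx7 made up 62.0% of the summed CPM per kilobase in iCD8a, 88.7% in ILC1 and 21.7% in CD11b+. P2rx4 made up 14.1%, 6.76% and 34.7% in the same order.

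The remaining P2X genes filled in the rest. P2rx1, a fast channel of platelets and some leukocytes, stood at 24.8 CPM in iCD8a, at 3.20 in ILC1 and at 16.03 in CD11b+, and was 7.74-fold higher in iCD8a than in ILC1 (6.03 to 10.1). P2rx5 had 0.277 CPM in iCD8a and 0.0902 CPM in ILC1, against 14.1 CPM in CD11b+. P2rx2, P2rx3 and P2rx6 were at 1.02 CPM or less in every library.

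**Figure D2:**
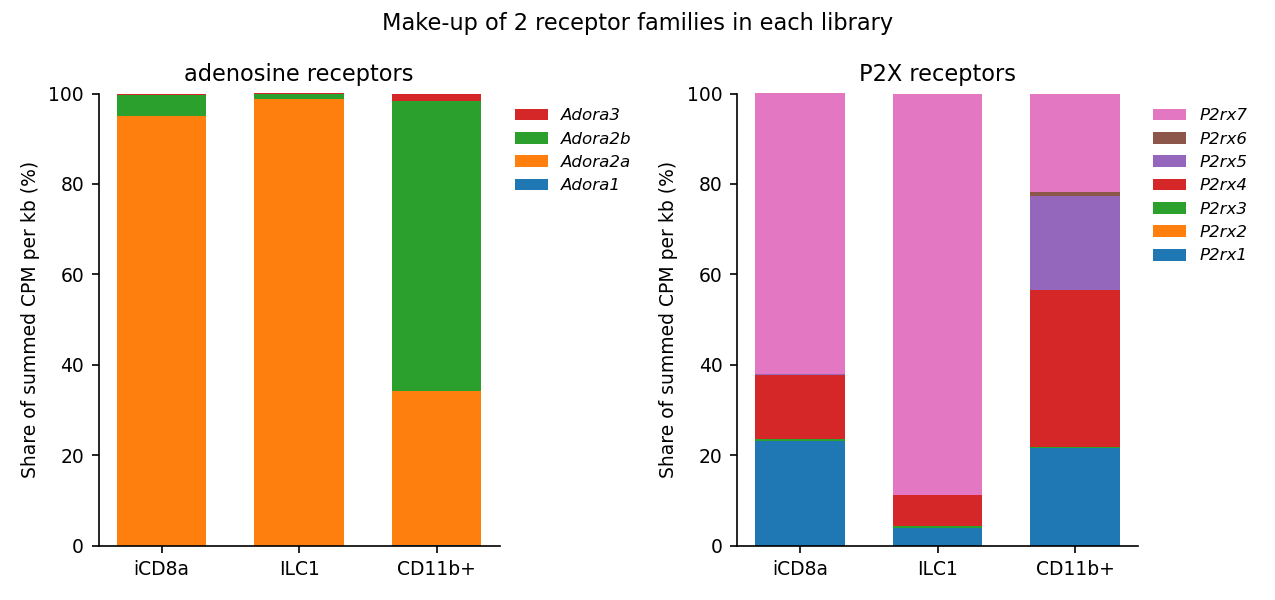
Share of each gene in the summed CPM per kilobase of merged exons of the adenosine receptors (left) and P2X receptors (right), 1 bar per library. Adora2a fills 95.01% of the adenosine receptor bar in iCD8a and 98.8% in ILC1, while Adora2b takes 64.1% in CD11b+; P2rx7 takes 62.0%, 88.7% and 21.7% of the P2X bars.

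The adenosine receptors differed in kind between CD11b+ and the other 2 libraries. Adora2a (ENSMUSG00000020178, chromosome 10), the main adenosine receptor of lymphocytes, which raises cyclic AMP, stood at 109.7 CPM in iCD8a (105 to 114), at 260.4 in ILC1 (254 to 267) and at 40.1 in CD11b+ (37.9 to 42.4). It was highest in ILC1, 2.37-fold lower in iCD8a than in ILC1 (2.26 to 2.49) and 6.49-fold higher in ILC1 than in CD11b+ (6.10 to 6.91). Adora2b (ENSMUSG00000018500), a receptor of lower affinity that is known from macrophages, dendritic cells and gut epithelium, stood at 3.23 CPM in iCD8a (2.52 to 4.08), at 1.71 in ILC1 (1.21 to 2.35) and at 45.4 in CD11b+ (43.0 to 47.8). It was 14.1-fold lower in iCD8a than in CD11b+ (11.1 to 18.1) and 26.5-fold lower in ILC1 than in CD11b+ (19.2 to 37.6). Adora3 (ENSMUSG00000000562, chromosome 3), which lowers cyclic AMP and is known from mouse mast cells, had 10 counts in iCD8a, 6 in ILC1 and 74 in CD11b+, or 0.461, 0.270 and 2.43 CPM. It did not reach the 5 CPM minimum in any library, and it shares its locus on the same strand with Tmigd3, so its counts are uncertain. Adora1, the remaining receptor of the family, had 1, 1 and 7 counts.

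The ratio of Adora2a to Adora2b per kilobase was 20.5 in iCD8a (16.1 to 26.4), 91.6 in ILC1 (66.7 to 129.6) and 0.533 in CD11b+ (0.493 to 0.575). That ratio was 38.5 times as high in iCD8a as in CD11b+ (29.96 to 49.4) and 172 times as high in ILC1 as in CD11b+ (124 to 239). Adora2a made up 95.01% of the adenosine receptor transcript per kilobase in iCD8a, 98.8% in ILC1 and 34.1% in CD11b+. Adora2b made up 4.64%, 1.08% and 64.1%.

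Most epithelial, phagocyte and dendritic cell markers were lower in both lymphoid libraries than in CD11b+, as Adora2b was. Adora2b stood in iCD8a at 7.11% and in ILC1 at 3.77% of its CD11b+ level. The 15 epithelial markers stood at medians of 14.8% in iCD8a (9.97% to 314%) and 13.5% in ILC1 (9.75% to 149%) of their CD11b+ levels. Of them, 11 were lower in iCD8a and 13 lower in ILC1 than in CD11b+ (12.1% and 12.4% of all genes). The sums were 955, 491 and 1658 CPM in iCD8a, ILC1 and CD11b+, with 0 of the markers at 0 counts. Most of the iCD8a sum came from Cdh1, Cdh17 and Epcam, at 392, 210 and 168 CPM. In CD11b+ they were at 192, 66.9 and 167 CPM. Cdh1 gave 287 CPM of the ILC1 sum. The 10 macrophage and monocyte markers stood at medians of 0.324% in iCD8a and 5.42% in ILC1 of their CD11b+ levels. All 10 were lower in each lymphoid library (12.1% of all genes in iCD8a and 12.4% in ILC1), with sums of 35.2, 369.6 and 7215 CPM. The 10 dendritic cell markers had median log2 ratios to CD11b+ of −4.08 in iCD8a and −4.51 in ILC1, beside −3.81 and −4.73 for Adora2b. Of them, 7 were lower and 1 higher in iCD8a (12.1% and 7.57% of all genes), and 6 lower and 0 higher in ILC1 (12.4% and 6.6%). The CD11b+ gate required CD45, which epithelial cells lack, though its library held the epithelial transcripts summed above. The part of any of these cell types in the Adora2b level was not tested. Beside Adora3, the mast cell markers Ms4a2, Tpsb2, Tpsab1 and Mcpt4 had 0 counts in iCD8a and in ILC1 and 2, 6, 9 and 11 counts in CD11b+. Not all of the list leaned that way: Cma1 had 0, 109 and 5 counts and Cpa3 had 93, 34 and 55 counts in iCD8a, ILC1 and CD11b+. Of the 12 mast cell markers, 5 reached 5 CPM in some library and so could pass the rule. Of them, 4 were lower in each lymphoid library than in CD11b+ (Mcpt1, Mcpt2, Hdc and Gata2), against 12.1% and 12.4% of all genes. Kit was higher in ILC1 than in CD11b+, against 6.6% of all genes. The sums of the 12 markers, 175.5, 945 and 295 CPM, were mostly Kit, which innate lymphoid cells also express.

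**Figure D3:**
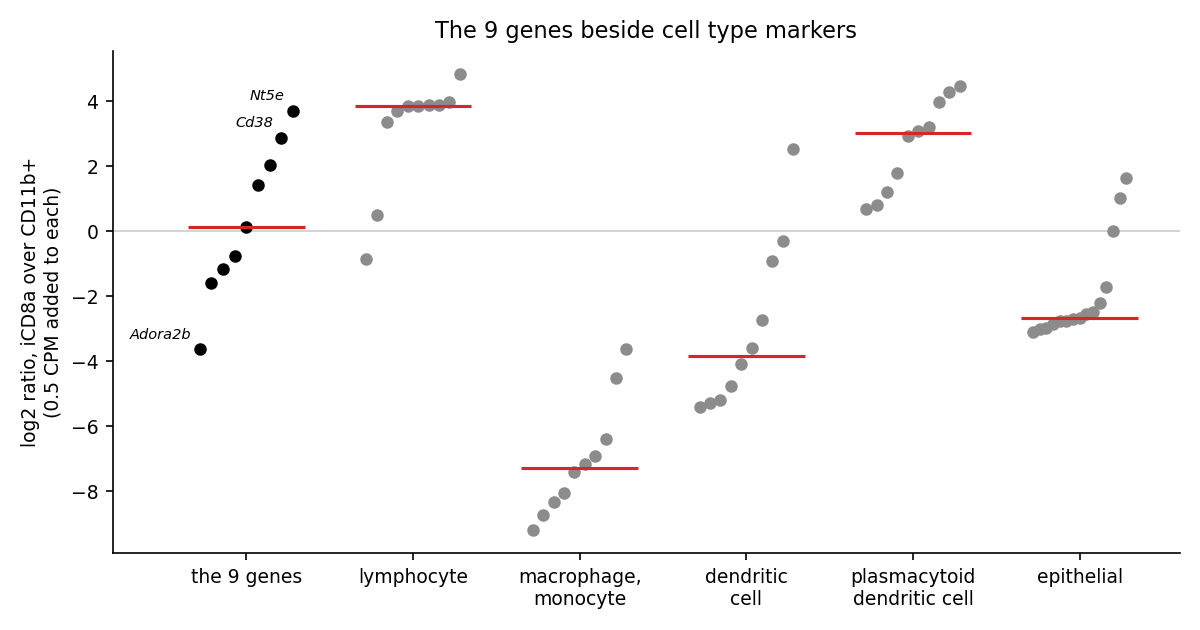
Log2 ratio of iCD8a over CD11b+ (0.5 CPM added to each level) for the 9 genes and for the genes of 5 marker lists, 1 point per gene in rising order, with red lines at the medians. Nt5e and Cd38 lie near the lymphocyte markers, and Adora2b lies below all 15 epithelial markers and above most macrophage markers. Adora2b falls within the range of the dendritic cell markers.

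Cd38 was, like Nt5e, highest in iCD8a and lowest in CD11b+, and Ada had the reverse order. Cd38 (ENSMUSG00000029084, chromosome 5) stood at 166 CPM in iCD8a (160.4 to 171), at 79.1 in ILC1 (75.5 to 82.9) and at 22.2 in CD11b+ (20.5 to 23.9). It was 7.48-fold higher in iCD8a than in CD11b+ (6.89 to 8.14), 2.10-fold higher in iCD8a than in ILC1 (1.98 to 2.22) and 3.57-fold higher in ILC1 than in CD11b+ (3.27 to 3.91). An antisense gene at the Cd38 locus, Gm16015, had 26, 16 and 7 counts, against 3594, 1755 and 676 for Cd38. Ada (ENSMUSG00000017697, chromosome 2) was low throughout, at 7.24 CPM in iCD8a (6.15 to 8.47), at 14.4 in ILC1 (12.8 to 16.05) and at 17.0 in CD11b+ (15.5 to 18.5). It was 1.99-fold lower in iCD8a than in ILC1 (1.64 to 2.42) and 2.34-fold lower in iCD8a than in CD11b+ (1.96 to 2.82), below the 4-fold size. The ratio of Nt5e, which makes adenosine, to Ada, which removes it, was 14.4 per kilobase in iCD8a (12.3 to 16.9), 4.30 in ILC1 (3.84 to 4.83) and 0.460 in CD11b+ (0.414 to 0.512), and 26.1, 7.80 and 0.835 with the longest transcript as the length.

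Ordered by level per kilobase of merged exons, iCD8a was led by Nt5e at 51.9 CPM per kilobase, followed by Cd38 at 42.6, Entpd1 at 36.1, Adora2a at 35.8 and P2rx7 at 25.2. ILC1 was led by Adora2a at 85.1, followed by Nt5e at 30.9, P2rx7 at 27.9, Cd38 at 20.3 and Entpd1 at 13.6. CD11b+ was led by Entpd1 at 33.0, followed by Adora2b at 24.6, Adora2a at 13.1, P2rx4 at 9.79 and Ada at 8.48. Entpd1 and Adora2a in iCD8a, and P2rx7 and Cd38 in CD11b+, were neighbours whose counting intervals overlap. In the lymphoid libraries P2rx4, Ada, Adora2b and Adora3 took the lowest places. With the longest transcript as the length, every place in iCD8a and ILC1 was kept, while in CD11b+ the leading pair, Ada and Adora3 kept theirs and the other 5 genes changed places.

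**Figure D4:**
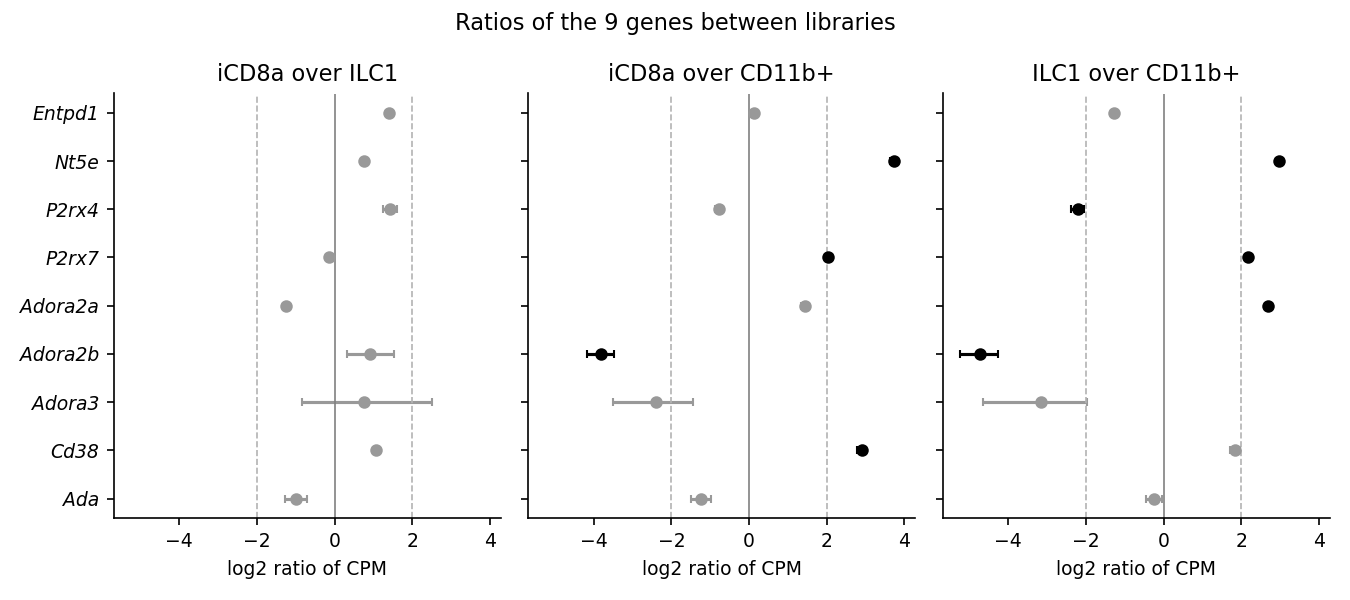
Log2 ratio of CPM for each of the 9 genes in the 3 comparisons, with 95% exact counting intervals; dashed lines mark 4-fold, and black points passed the rule of size. No gene passed between iCD8a and ILC1, 4 passed when iCD8a was set against CD11b+, and 5 when ILC1 was.

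Between iCD8a and ILC1, 0 of the 9 genes were apart, against 3.91% of 10188 genes higher in iCD8a and 4.52% lower. Of the 9, 7 reached the minimum level in that comparison, and the sizes of all 9 ran from 1.10-fold to 2.70-fold. The median log2 ratio of the 9 was 0.75, beside 0.20 over all genes tested. It was 0.83 over the 8 that reached 5 CPM in some library. The 2 genes furthest to either side were P2rx4, higher in iCD8a, and Adora2a, lower in iCD8a.

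Between iCD8a and CD11b+, 3 of the 9 were higher in iCD8a (Nt5e, Cd38 and P2rx7), against 7.57% of 10828 genes tested. Adora2b was the 1 gene lower in iCD8a, against 12.1% of genes tested. Between ILC1 and CD11b+, 3 were higher in ILC1 (Nt5e, Adora2a and P2rx7), against 6.6% of 10667 genes tested, and 2 were lower in ILC1 (Adora2b and P2rx4), against 12.4%. These 2 comparisons share the CD11b+ library. In each, 8 of the 9 genes reached the minimum level. The median log2 ratio of the 9 was 0.13 for iCD8a over CD11b+, beside 0.33 over all genes tested, and −0.24 for ILC1 over CD11b+, beside 0.14. Those medians of the 9 include Adora3, which stayed below the 5 CPM that all genes tested had reached. Over the 8 genes at 5 CPM the medians were 0.79 and 0.80, above the values for all genes tested. TMM scaling moved every log2 ratio by −0.14 for iCD8a over ILC1, −0.24 when iCD8a was set over CD11b+, and −0.10 when ILC1 was.

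Among the P2Y receptors, most of which couple nucleotides to G proteins, P2ry10 was the 1 member higher in iCD8a and in ILC1 than in CD11b+. P2ry10 stood at 1163 CPM in iCD8a, at 1251 in ILC1 and at 181 in CD11b+, 6.42-fold higher in iCD8a than in CD11b+ (6.23 to 6.61) and 6.90-fold higher in ILC1 than in CD11b+ (6.71 to 7.11). It is counted with the family by sequence, and its known ligands are lysophospholipids. Of 8 measured P2Y genes, 1 was higher and 0 were lower in iCD8a than in ILC1, against 3.91% and 4.52% of all genes tested. Against CD11b+, 1 was higher and 2 were lower in iCD8a (7.57% and 12.1% of all genes), and 1 was higher and 4 were lower in ILC1 (6.6% and 12.4%). P2ry6, a receptor for UDP, stood at 1.34 CPM in iCD8a, at 0.316 in ILC1 and at 27.2 in CD11b+, and P2ry2, a receptor for ATP and UTP, at 0.185, 0.766 and 12.2 CPM. P2ry13, a receptor for ADP, was 20.9-fold higher in iCD8a than in ILC1 (10.8 to 46.5), at 8.49 against 0.406 CPM, with 10.4 CPM in CD11b+. P2ry12, also a receptor for ADP, was at 2.40, 0.541 and 7.64 CPM. P2ry14, a receptor for UDP sugars, was not apart in any comparison, at 22.0, 9.33 and 22.8 CPM.

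**Figure D5:**
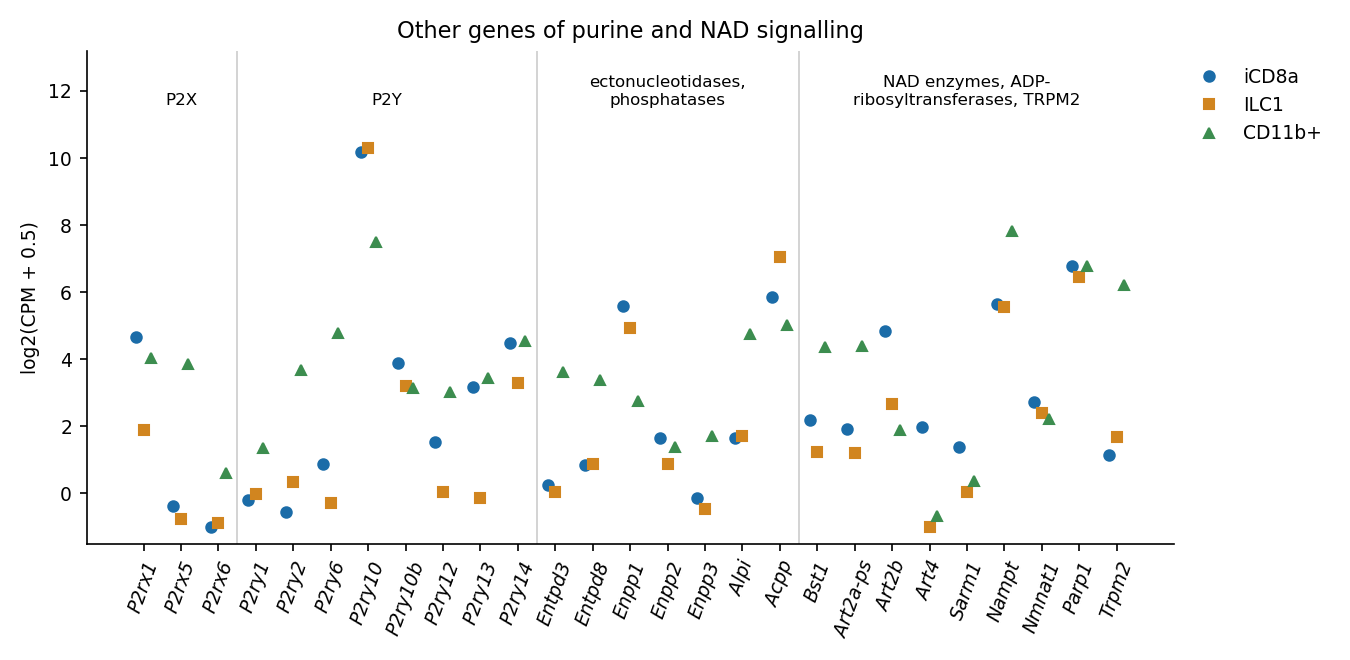
Level as log2(CPM + 0.5) of the other P2X and P2Y receptors, ectonucleotidases and phosphatases, and NAD enzymes with at least 1 CPM in any library, 1 point per library. P2ry10 is the highest of them in both lymphoid libraries, and P2rx5, P2ry6 and Trpm2 stand far higher in CD11b+ than in the lymphoid libraries.

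Other enzymes that cut extracellular nucleotides also divided. Of 7 measured, 0 were apart between iCD8a and ILC1, where 3.91% of all genes were higher and 4.52% lower in iCD8a. Against CD11b+, 1 was higher and 3 were lower in iCD8a (7.57% and 12.1% of all genes), and 2 were higher and 3 lower in ILC1 (6.6% and 12.4%). Enpp1, which cuts ATP to AMP and pyrophosphate, stood at 47.3 CPM in iCD8a, at 29.9 in ILC1 and at 6.26 in CD11b+, 7.56-fold higher in iCD8a than in CD11b+ (6.47 to 8.87) and 4.78-fold higher in ILC1 than in CD11b+ (4.07 to 5.65). Acpp, a phosphatase that can make adenosine from AMP, was highest in ILC1, at 57.7, 131 and 31.7 CPM, and its 4.13-fold excess in ILC1 over CD11b+ was 3.85 with TMM factors. Entpd3, Entpd8 and Alpi were lower in both lymphoid libraries than in CD11b+. Alpi, the intestinal alkaline phosphatase of enterocytes and itself 1 of the 15 epithelial markers, was at 2.63, 2.80 and 26.4 CPM, and Entpd8 at 1.29, 1.35 and 9.83 CPM. Entpd3 was at 0.692, 0.541 and 11.8 CPM. Of 5 measured intracellular relatives of CD39, Entpd4b was higher in both lymphoid libraries than in CD11b+ (7.57% of all genes in iCD8a and 6.6% in ILC1). Entpd4b was at 37.2, 30.8 and 7.47 CPM, with the excess in ILC1 at 3.85-fold under TMM factors. It shares reads with its near-identical copy Entpd4, which had 0 counts, so its level is uncertain.

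Uptake and breakdown of adenosine gave 2 genes higher and 1 lower in iCD8a than in ILC1 among 18 measured, where 3.91% and 4.52% of all genes were. Slc29a3, a nucleoside transporter of lysosomes, was at 38.1 CPM in iCD8a, at 7.80 in ILC1 and at 40.8 in CD11b+. Dpp4, whose product CD26 holds adenosine deaminase at the cell surface in humans, was at 54.8, 7.71 and 310.0 CPM, 7.11-fold higher in iCD8a than in ILC1 (6.05 to 8.39) and 5.66-fold lower in iCD8a than in CD11b+ (5.32 to 6.01). Slc29a2, an equilibrative transporter, was at 0.507, 7.03 and 5.90 CPM. Slc28a2, which takes up purine nucleosides with sodium, was at 299, 146 and 40.4 CPM and was 7.41-fold higher in iCD8a than in CD11b+ (6.97 to 7.88). Ampd3, an AMP deaminase, was at 1.75, 1.08 and 28.5 CPM. Against CD11b+, 1 of the 18 was higher and 3 were lower in iCD8a, beside 7.57% and 12.1% of all genes, and 0 were higher and 3 lower in ILC1, beside 6.6% and 12.4%. Adk, the kinase that returns adenosine to AMP, was at 4.43, 2.39 and 7.80 CPM and was not apart in any comparison.

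Genes of NAD signalling around Cd38 and P2rx7 differed in kind. Art2b, the ADP-ribosyltransferase that modifies P2X7 on mouse T cells, was at 28.1 CPM in iCD8a, at 5.91 in ILC1 and at 3.18 in CD11b+, 4.76-fold higher in iCD8a than in ILC1 (3.93 to 5.79) and 8.84-fold higher in iCD8a than in CD11b+ (7.12 to 11.1). Its near-identical copy, listed as Art2a-ps, was at 3.32, 1.80 and 20.7 CPM, and reads shared by the copies make both values uncertain. Bst1, a relative of CD38, was at 4.11, 1.85 and 20.2 CPM, and Trpm2, a calcium channel opened by ADP-ribose, at 1.71, 2.70 and 74.3 CPM. Of 9 measured genes in this group, 1 was higher and 0 lower in iCD8a than in ILC1 (3.91% and 4.52% of all genes). Against CD11b+, 1 was higher and 4 were lower in iCD8a (7.57% and 12.1%), and 0 were higher and 4 lower in ILC1 (6.6% and 12.4%). The fourth of the lower genes in each was Nampt, which makes an NAD precursor, at 49.9, 46.3 and 229 CPM.

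The inflammasome genes that P2X7 can engage in macrophages did not follow P2rx7. Of 12 measured, 0 were higher and 3 lower in iCD8a than in ILC1 (3.91% and 4.52% of all genes). Against CD11b+, 0 were higher and 5 lower in iCD8a (7.57% and 12.1%), and 0 were higher and 4 lower in ILC1 (6.6% and 12.4%). Nlrp3, the sensor, was at 2.31 CPM in iCD8a, at 17.4 in ILC1 and at 476 in CD11b+, and Il1b, its cytokine product, at 5.72, 18.7 and 2491 CPM. Il18, another cytokine that caspase 1 matures, was at 0.461, 0.270 and 14.3 CPM, and Pla2g4a, a phospholipase, at 0.923, 0.676 and 25.8 CPM. Tmem176b was at 1.98, 93.1 and 100.4 CPM, 46.96-fold lower in iCD8a than in ILC1 (34.7 to 65.1), and Casp4, at 26.2, 107 and 36.6 CPM, was 4.09-fold lower there (3.73 to 4.49). Casp1, Pycard and Gsdmd, which carry the signal on, were not apart in any comparison, with Casp1 at 60.9, 47.8 and 59.6 CPM. Panx1, a channel that can release ATP, was at 48.4, 57.4 and 31.6 CPM and was not apart either. Of the 6 measured genes of ATP release, 1 was apart in any comparison, higher in iCD8a than in CD11b+ (7.57% of all genes). It was Slc17a9, which loads ATP into vesicles, at 46.5, 23.6 and 10.2 CPM, and its 4.55-fold excess in iCD8a over CD11b+ was 3.86 with TMM factors.

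Below the adenosine receptors, several cyclic AMP genes were higher in the lymphoid libraries. Of 20 measured, 5 were higher and 1 lower in iCD8a than in CD11b+, against 7.57% and 12.1% of all genes. In ILC1, 4 were higher and 1 lower than in CD11b+, against 6.6% and 12.4%. Between iCD8a and ILC1 0 were apart, where 3.91% of all genes were higher and 4.52% lower in iCD8a. Prkacb, a catalytic subunit of protein kinase A, was at 951 CPM in iCD8a, at 382 in ILC1 and at 148 in CD11b+. The phosphodiesterases Pde7a and Pde4a, which break down cyclic AMP, were at 344, 303 and 54.1 CPM and at 115, 91.0 and 20.4 CPM. Adcy3, an adenylyl cyclase, was at 10.1, 16.2 and 1.05 CPM, whereas Adcy7, the more abundant cyclase by CPM, was not apart, at 423, 487 and 412 CPM. Pde4d, another phosphodiesterase, was at 23.9, 79.2 and 8.16 CPM and 9.70-fold higher in ILC1 than in CD11b+ (8.49 to 11.1). Adcy6, also an adenylyl cyclase, was the 1 gene lower in each lymphoid library, at 0.784, 1.44 and 12.9 CPM. Pde3b was 4.21-fold higher in iCD8a than in CD11b+ and stood at 3.57-fold with TMM factors. Of 7 regulators of CD39 and CD73, Gfi1, a transcriptional repressor, was higher in both lymphoid libraries than in CD11b+ (7.57% and 6.6% of all genes). Gfi1 was at 112, 43.1 and 8.88 CPM, while the other 6 were not apart. With TMM factors Ahr, a ligand-gated transcription factor, at 106, 259 and 393 CPM, and Hif1a, the oxygen-regulated factor, at 97.2, 242 and 333 CPM, also passed, 4.38-fold and 4.04-fold lower in iCD8a than in CD11b+.

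The medians of these lists over iCD8a against CD11b+ and over ILC1 against CD11b+ lie beside 0.33 and 0.14 for all genes tested. The lists are first read at a minimum of 1 CPM in any library. The genes tested had reached 5 CPM in either library of the pair. The median log2 ratio was −2.66 and −2.84 for the other ectonucleotidases, −0.97 and −2.88 for P2Y receptors, and −0.44 and −0.77 for adenosine uptake and metabolism. It was −0.56 and −0.38 for the inflammasome genes, 0.86 and 0.82 for the cyclic AMP genes, and 0.18 and 0.64 for the regulators of CD39 and CD73. It was −5.48 and −3.93 for the 3 other P2X receptors measured, 0.90 and 0.53 for the intracellular relatives of CD39, −0.0027 and −2.30 for the NAD genes, and −0.19 and 0.03 for ATP release. At 5 CPM it was −2.46 and −4.64 for 2 other P2X receptors, −0.29 and −3.76 for P2Y receptors, and −2.19 and −2.30 for the NAD genes. It was then −2.91 and −2.84 for the other ectonucleotidases and −0.36 and −0.20 for adenosine uptake and metabolism. For the cyclic AMP genes it was 1.12 and 1.01, and for ATP release 0.32 and 0.57. The remaining lists named here kept their medians.

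Other cell types that the gates could hold left transcripts as well. Plasmacytoid dendritic cell markers summed to 1586, 1492 and 452 CPM in iCD8a, ILC1 and CD11b+. Of the 10, 6 were higher in iCD8a than in ILC1 (3.91% of all genes) and 6 higher than in CD11b+ (7.57%). Irf8 gave 1174 CPM of the ILC1 sum, while Siglech was at 244, 0.947 and 11.9 CPM and Ly6d at 82.5, 0.135 and 3.24 CPM. Dendritic cell markers summed to 1068, 1123 and 10546 CPM, of which Itgax gave 787, 949 and 1471 CPM. Of these 10 markers, 4 were higher and 1 lower in iCD8a than in ILC1 (3.91% and 4.52% of all genes). The higher ones were Flt3, Clec9a, Cd209a and Wdfy4, and the lower one Zbtb46. NK and ILC1 markers summed to 899, 4669.6 and 145 CPM. Peritoneal macrophage markers summed to 9.32, 426 and 929.6 CPM, of which Fn1 gave 268 CPM in ILC1 and 828 CPM in CD11b+. Eosinophil markers summed to 1.34, 42.6 and 224 CPM, and Alox15, which is also on the peritoneal list, gave 41.2 CPM of the ILC1 sum. Neutrophil markers summed to 8.63, 43.8 and 505 CPM, of which Mmp9 gave 34.1 CPM in ILC1. B cell and plasma cell markers summed to 554, 293 and 169 CPM, most of it Ighm. The part of these cells in the levels of the 9 genes was not tested.

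The genes with the most similar pattern were sought among 10503 protein-coding genes by the distance between log2(CPM + 0.5) values centred over the 3 libraries, so likeness rests on 3 points per gene. Nearest to Nt5e were Abcb9 (distance 0.0957), Card6 (0.0986) and Gimap7 (0.140). Nearest to Adora2b were Tbc1d16, Ralb and Mpzl2, and nearest to Adora2a were B3gnt2, Zbtb20 and Bcl2l11. For Cd38 they were Tmem59l, Parp16 and the nucleoside transporter Slc28a2, at a distance of 0.0251. For P2rx7 they were Pag1, Tcf12 and Rnf43, for P2rx4 Atpif1, S100a11 and Fam234b, for Entpd1 Lonrf1, Bdh1 and Trappc1, and for Ada Ints6l, Map3k5 and Ndrg1. Within a distance of 0.25 lay 8 genes for Nt5e, the fewest, and 64 for P2rx7, the most.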

How the data were processed

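Per the series' design text, the authors used TopHat for alignment and HTSeq for gene counts. CASAVA 1.9 and TopHat2 appear in the submitters' processing notes. The deposited files hold raw read counts for 37224 Ensembl genes with no normalization by the authors, and 5 rows that name no gene, which were left out. Those rows held reads with several alignments (26.9% to 34.5% of a file's total), reads in no gene (8.56% to 11.01%) and ambiguous reads (0.889% to 1.08%). Genome build, annotation, strand setting and counter version are not stated in the labels, so overlapping and antisense genes cannot be told apart.

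CPM was computed on total gene counts. Symbols and exon lengths came from GENCODE M21 by Ensembl ID (35449 matched), and promoters from RefSeq. Folds have exact conditional binomial (Clopper-Pearson) intervals and levels exact Poisson intervals, for counting error only, since PCR copies of a molecule cannot be recognised without molecular identifiers. Steps were checked on simulated counts. With 1 library per group, edgeR 4.0.16 and DESeq2 1.42.0 gave scaling factors only. Python 3.11.15, scipy 1.17.1 and matplotlib 3.10.9 were used.

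The 9 genes, the pathway and marker lists and the rule of size were chosen with earlier results of these data known. All 9 genes are named. Every pathway-list gene that was apart in a comparison is named, as are the purine receptors and ectonucleotidases that bear on a result. Adcy7, Adk, Ahr, Hif1a, Casp1, Pycard, Gsdmd and Panx1, the single marker genes and the genes of the sort and genotype check were named after their values were seen. For likeness, the 3 nearest protein-coding genes were taken for each of the 9 that reached 5 CPM in some library. List medians and counts used genes that reached 1 CPM somewhere. Alternatives were TMM, DESeq2 and upper-quartile factors, other minimums and folds, thinning, and other gene sets for the library size. Factors for the pathway lists were added after the data were seen.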

Additional observations from a re-analysis of the deposited data

Results flagged for a closer look

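Part of each library was counted to no gene and enters no comparison above. Reads with several alignments were 26.9% of the iCD8a total, 34.5% of the ILC1 total and 30.5% of the CD11b+ total, and they bear on genes with near-identical copies such as Art2b. Reads in no gene made up 9.31%, 11.01% and 8.56%, and reads ambiguous between genes, which can include those at the Adora3 and Tmigd3 locus, 1.08%, 0.889% and 0.922%. No group has the 4 samples that a search for outlying samples would need.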

How the results depend on the processing

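No paired analysis was possible because each group has 1 library. Of 189 member folds under 7 other scalings or depths, 0 called folds changed sign, 5 calls differed, all of P2rx7 for iCD8a over CD11b+, and the largest move of a fold was 1.20 times. That P2rx7 fold was 4.12, and 3.50 with TMM, 3.44 with DESeq2, 3.54 with upper-quartile factors, 3.79 without mitochondrial genes and 3.84 without the 50 most abundant genes of each library. Entpd1, not called, crossed 1 for iCD8a over CD11b+ under the 3 factors, to 0.929, 0.914 and 0.940. At a 1 CPM minimum or none, 2 genes in place of 1 were lower in iCD8a than in CD11b+ (14.9% and 10.4% of all genes), and 3 in place of 2 in ILC1 (14.8% and 10.3%), with Adora3 added in both. At 2-fold, 3 genes exceeded their ILC1 level in iCD8a (Entpd1, P2rx4 and Cd38; 12.1% of all genes) and 1 fell short of it (Adora2a; 9.36%). Against CD11b+, 4 were then higher in iCD8a (23.4% of all genes) and 2 lower (Adora2b and Ada; 17.6%), and in ILC1 4 were higher (19.5%) and 3 lower (19.4%). At 8-fold, 1 gene (Nt5e) stayed higher in iCD8a than in CD11b+, and Adora2b, 14.1-fold lower in that comparison, stayed lower. In ILC1, 0 stayed higher and 1 (Adora2b) lower than in CD11b+. Shares of all genes were 2.20% higher and 2.85% lower in iCD8a than in ILC1, and 3.20% higher in iCD8a than in CD11b+. They were 2.94% higher and 8.25% lower in ILC1 than in CD11b+. The share lower in iCD8a than in CD11b+ is not reported here at 8-fold and was 12.1% at 4-fold. Under the 3 factors 188 of 198 pathway list counts stayed within 1.5 times, and 6 genes changed call, among them Ahr, 4.38-fold lower in iCD8a than in CD11b+ with TMM. The list minimum could not be checked through the counts, since the rule of size already asks for 5 CPM. At 5 CPM in place of 1 CPM, several list medians moved, as given above. Depth limits Adora3, whose fold for iCD8a over ILC1 had an interval from 0.562 to 5.71.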
